A study of Mus musculus with 22 samples.

Results

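The 10 genes described here, Pdgfra, Cspg4, Olig1, Olig2, Sox10, Gpr17, Neu4, Bcas1, Enpp6 and Vcan, mark oligodendrocyte precursor cells and the lineage that these cells give rise to. They were taken by symbol from the 53379 genes of the deposited count table, and 10 of 10 passed the filter on low counts that left 40714 genes for testing.

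The libraries were made from nuclei of the left hippocampus of adult male C57/BL6N mice, bought at 8 weeks of age and acclimatized for 4 weeks. Mice received either 70 nl of 20 mM kainate above the right hippocampus, which elicits status epilepticus, or 0.9% NaCl at the same place (sham), and tissue was taken 24 h later. Each treatment had 8 mice, pooled 4 or 2 at a time into 3 samples, so a library stands for several animals. The methods do not state which replicates held more mice. The kainate mice were those that had shown convulsive seizures. The protocol text of the labels speaks of right hippocampi, while the sample titles and the methods speak of left ones, contralateral to the injection. Nuclei were sorted on the neuronal nuclear protein NeuN into NeuN+ nuclei, called neurons, and NeuN– nuclei, called glia. The NeuN– fraction holds every nucleus without NeuN, so it mixes precursors with mature oligodendrocytes, astrocytes, microglia and vascular cells. The groups were 3 kainate glia, 2 sham glia (replicates 1 and 3), 3 kainate neuron and 3 sham neuron libraries.

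Oligodendrocyte precursors keep dividing in the adult brain and respond to platelet-derived growth factor through the receptor Pdgfra, and they carry the proteoglycan Cspg4, better known as NG2. The transcription factors Olig1, Olig2 and Sox10 are present from the precursor to the myelinating cell. Between these stages lies a short-lived committed precursor and newly formed oligodendrocyte that expresses Gpr17, Bcas1 and Enpp6, before the genes of compact myelin take over.

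Promoter sequences, from 250 bases before to 50 bases after the start site, were at hand for 6 of the 10 genes (RefSeq, GRCm38.p6, the same assembly as mm10). The 4 below belong to genes at different steps of the lineage, all of them lower in kainate glia in the paired comparison described further on, and are printed 5′ to 3′ on the strand of the gene. Capitals mark matches on either strand to a SOX core (ACAAAG or ACAATG), an E-box (CAGCTG), a GC box (GGGCGG) or a TATA box (TATAAA).
Cspg4, chr9:56864854-56865153, + strand: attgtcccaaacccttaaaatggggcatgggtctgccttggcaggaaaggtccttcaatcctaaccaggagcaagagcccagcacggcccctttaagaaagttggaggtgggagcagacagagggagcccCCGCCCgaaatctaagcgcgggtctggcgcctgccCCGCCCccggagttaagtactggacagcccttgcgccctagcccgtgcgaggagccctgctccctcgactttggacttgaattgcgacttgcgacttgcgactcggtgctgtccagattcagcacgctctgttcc
Olig2, chr16:91225300-91225599, + strand: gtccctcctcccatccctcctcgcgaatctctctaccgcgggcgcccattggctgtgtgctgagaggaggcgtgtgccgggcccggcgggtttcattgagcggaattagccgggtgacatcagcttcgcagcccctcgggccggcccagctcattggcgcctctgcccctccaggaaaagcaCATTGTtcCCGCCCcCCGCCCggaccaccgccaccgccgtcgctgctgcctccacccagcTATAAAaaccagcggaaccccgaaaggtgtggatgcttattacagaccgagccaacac
Neu4, chr1:94020243-94020542, + strand: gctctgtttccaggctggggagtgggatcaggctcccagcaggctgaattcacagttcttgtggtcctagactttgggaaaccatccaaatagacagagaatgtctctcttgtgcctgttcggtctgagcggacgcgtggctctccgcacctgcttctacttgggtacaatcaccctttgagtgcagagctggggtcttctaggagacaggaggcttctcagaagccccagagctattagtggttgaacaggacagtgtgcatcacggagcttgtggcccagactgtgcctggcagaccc
Enpp6, chr8:46986637-46986936, + strand: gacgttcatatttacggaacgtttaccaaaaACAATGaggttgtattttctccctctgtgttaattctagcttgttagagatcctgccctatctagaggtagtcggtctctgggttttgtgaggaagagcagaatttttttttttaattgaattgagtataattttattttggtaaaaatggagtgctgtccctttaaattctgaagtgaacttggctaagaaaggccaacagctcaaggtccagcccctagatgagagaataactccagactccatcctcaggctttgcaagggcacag
The Cspg4 promoter held 2 GC boxes, and the Olig2 promoter held 2 GC boxes, 1 SOX core and 1 TATA box. The Enpp6 promoter held 1 SOX core, and the Neu4 promoter matched none of these letters. Of 32851 mouse promoters of this length, 28.6% held a SOX core, 16.3% the E-box, 35.7% a GC box and 13.6% the TATA box, so these matches are common and describe the sequence only. The GC content was 60% for Cspg4, 65% for Olig2, 55.3% for Neu4 and 40.3% for Enpp6. The promoters of Olig2 and Cspg4 held 25 and 17 CpG dinucleotides, and those of Neu4 and Enpp6 held 6 and 4.

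Library totals ranged from 12058875 to 45428465 counts. The glia libraries kainate replicate 2 and sham replicate 1 had been made from 0.05 ng of RNA with 15 cycles of PCR, and the others from 1 ng with 10 cycles. Levels are in CPM, which divide a gene's count by the library size after TMM scaling. Differences are log2 fold changes from edgeR's quasi-likelihood test, with the standard error (SE) in brackets, and a gene is called at a false discovery rate (FDR) below 0.25, adjusted over all 40714 genes. In these bulk fractions, fewer cells of a type and less RNA per cell cannot be told apart.

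All 10 genes were far higher in glia than in neurons. Over both treatments, 10 of 10 were called higher in glia, against 20.4% of all genes called higher and 16.8% called lower, and the lowest glia library lay above the highest neuron library for each of them. Sox10 had the largest difference, 5.50 (SE 0.56), at an FDR of 3.3e-05. Vcan, a chondroitin sulfate proteoglycan of the extracellular matrix that neurons can also express, had the smallest, 2.78 (SE 0.33), at an FDR of 5.26e-05. The other 8 genes lay between 4.11 for Cspg4 and 5.25 for Gpr17. The call was also made for 10 of 10 genes within sham, where 7.63% of all genes were called higher and 9.11% lower, within kainate (9.39% and 11.3%) and over both with the pool as a block (34.8% and 24.9%). The 12 myelin and mature oligodendrocyte genes were called higher in 12 of 12 cases, led by Cldn11, a tight junction protein of myelin, with 6.41. The lowest of them was Mbp, a main myelin protein, with 4.34.

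Per kilobase of exon, over the 5 glia libraries, Olig1 had the highest mean level, with 243 ± 194 (SD) counts per kilobase (CPM divided by exon length), followed by Sox10 with 188 ± 101. These 2 did not differ beyond their spread, since Olig1 was the higher in 3 of 5 libraries. Next came Olig2 with 89.2 ± 50.8, below Sox10 in 5 of 5 libraries. Gpr17, with 58.7 ± 62.9, and Bcas1, with 48.0 ± 17.6, overlapped, and Gpr17 was the higher in 2 of 5 libraries. Pdgfra had 30.1 ± 22.3, Neu4 19.0 ± 15.5 and Cspg4 17.6 ± 14.0. Enpp6 had 15.0 ± 13.7 and Vcan, the longest transcript of the set, the lowest mean level, 9.56 ± 5.21. Only Sox10 over Olig2, Pdgfra over Neu4 and Cspg4 over Enpp6 kept their order in 5 of 5 libraries among such neighbours.

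The question for the kainate comparison was which of these genes differed in the hippocampus that had seen seizure activity without the injection. Gpr17 gave the clearest difference in glia. This receptor is switched on as precursors commit to differentiation and off again before myelination. Its level was 245, 126 and 36.1 CPM in kainate glia replicates 1, 2 and 3 and 867 and 250 CPM in sham glia replicates 1 and 3. Gpr17 was the only gene of the 10 whose groups did not overlap, the highest kainate library being just below the lowest sham library. Groups did not overlap for 3.52% of all genes on the lower side and 4.7% on the higher side. The difference was -2.04 (SE 0.87), with an unadjusted p of 0.0337 and an FDR of 1 in edgeR's quasi-likelihood test. Within both groups replicate 1 was the highest and replicate 3 the lowest, with a spread as wide as the difference between the treatments. Library properties moved with this order, and their part in it was not tested. The TMM factors were 0.864, 1.19 and 1.60 in kainate glia replicates 1, 2 and 3 and 0.762 and 1.68 in sham glia replicates 1 and 3, and genes with a count numbered 41933, 47220 and 50104 against 37158 and 48618.

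The same pattern of replicates ran through the set, except that Bcas1 was level in replicates 1 and 2 of kainate glia. Neu4, a sialidase, had 98.9, 37.9 and 22.6 CPM in kainate glia and 205 and 75.4 CPM in sham glia. Enpp6, a choline-specific phosphodiesterase of newly formed oligodendrocytes, had 111, 51.8 and 19.9 CPM against 242 and 54.9 CPM. In both genes the kainate library of replicate 1 lay above the sham library of replicate 3. Bcas1, which marks early myelinating cells, had 224, 226 and 129 CPM against 236 and 91.2 CPM and was the gene with the highest kainate level relative to sham.

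Of the precursor genes, Cspg4 had 220, 129 and 50.5 CPM in kainate glia and 489 and 161 CPM in sham glia. Pdgfra had 435, 176 and 87.0 CPM against 627 and 181 CPM, and its kainate replicate 2 came close to sham replicate 3. Vcan had 168, 94.4 and 63.3 CPM against 254 and 111 CPM. The replicate number separated the libraries of each of these genes more than the treatment did.

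Among the transcription factors, Olig1 had 622, 325 and 114 CPM in kainate glia and 1201 and 360 CPM in sham glia. Olig2 had 297, 185 and 75.3 CPM against 407 and 163 CPM. Sox10 had 821, 579 and 262 CPM against 939 and 274 CPM, so the kainate and sham libraries of the same number were nearly level.

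**Figure D1:**
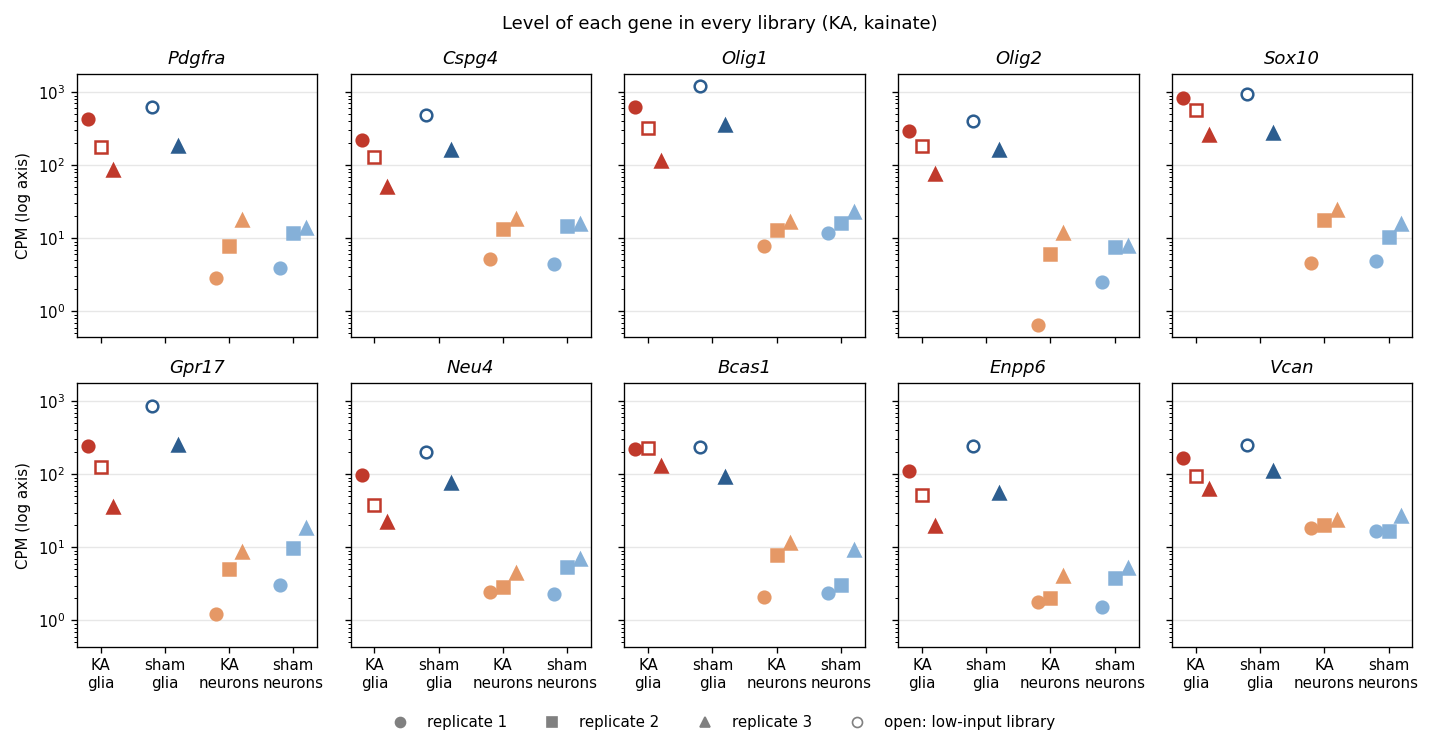
Level of each of the 10 genes in the 11 libraries, in CPM on a log axis, by group on the horizontal axis, with the replicate number as the symbol and open symbols for the libraries of low RNA input. Glia libraries lie above neuron libraries for every gene, replicate 1 lies high and replicate 3 low in glia, and in neurons replicate 1 is the lowest in most panels.

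Compared as group means, 0 of 10 genes were called in glia with edgeR, and 0 with the DESeq2 Wald test. All genes together had 0.0933% called higher and 0.00737% called lower. Unadjusted p-values below 0.05 in edgeR's test were found for 2 of the 10, Gpr17 and Neu4, whose difference was -1.40 (SE 0.62). Of all 40714 genes, 283 had such a p on the lower side and 551 on the higher side. The differences were below 0 for 9 of 10 genes, with a median of -0.97. Over all genes 19589 lay below 0, and the median was 0.02. The 10 differences ranged from -2.04 for Gpr17 to 0.24 (SE 0.68) for Bcas1, with -0.13 (SE 0.72) for Sox10. Sham glia replicate 1, made from little RNA, had the highest level of each of the 10 genes. Without it Pdgfra had 0.39, Olig2 0.22, Enpp6 0.18, Olig1 0.004 and Sox10 1.04, all above 0, and Bcas1 1.11, while Gpr17 had -0.85, Neu4 -0.48, Cspg4 -0.25 (against -1.29 with all libraries) and Vcan -0.002. Without sham glia replicate 3, Gpr17, Neu4 and Enpp6 were called lower, at an FDR of 0.24, 0.238 and 0.241, in a fit that called 1.06% of the 42640 genes tested lower and 5.53% higher.

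Libraries of the same replicate number deviated from their group means together, with correlations of 0.760 and 0.787 in glia. Those in neurons were 0.643, 0.161 and 0.491. The labels do not state that the numbers pair libraries. The pairing was inferred from the same counts that are tested, and the 2 glia values are not independent. A second fit took the number, in glia and neurons apart, as a block. In this fit 8 of 10 genes fell in kainate glia and none rose, against 2.86% of all genes called lower and 2.93% called higher. Gpr17 fell by 2.30 (SE 0.24, FDR = 5.55e-10), to 0.203 of the sham level. Cspg4 fell by 1.41 (SE 0.23, FDR = 2.19e-05), Neu4 by 1.39 (SE 0.25, FDR = 0.000177), Olig1 by 1.30 (SE 0.22, FDR = 6.97e-05) and Enpp6 by 1.29 (SE 0.25, FDR = 0.000369). Smaller decreases were called for Pdgfra, which fell by 0.79 (SE 0.23, FDR = 0.0447), Olig2, by 0.79 (SE 0.26, FDR = 0.102), and Vcan, by 0.70 (SE 0.23, FDR = 0.0863). Sox10, with -0.13 (SE 0.22, FDR = 0.991), and Bcas1, with 0.21 (SE 0.24, FDR = 0.956), were not called. The median of the 10 was -1.04, and that of all genes 0.11.

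This paired comparison rests on the pairs 1 and 3, because kainate glia replicate 2 has no sham partner. Its 3 residual degrees of freedom are those of glia and neurons together, most of them from the neuron libraries. Gpr17 differed by -1.82 in pair 1 and by -2.79 in pair 3, in log2 CPM. Pair 1 sets a library of 1 ng against one of 0.05 ng, while both libraries of pair 3 had 1 ng. The difference was below 0 in both pairs for 9 of the 10 genes, and it was the larger in pair 3 for the 8 genes called. Bcas1 had -0.08 and 0.50. Leaving out 1 of the 4 paired glia libraries keeps a single pair and no residual degree of freedom in glia, so the spread then comes from the neuron libraries alone and the calls are no check between glia replicates. In these 4 fits Gpr17, Cspg4, Olig1, Neu4 and Enpp6 were called each time, Pdgfra and Olig2 not without replicate 3 of either treatment, and Vcan in none. Of all genes, 1.08% and 3.47% were called lower without replicate 1 or 3 of the kainate glia, and 0.675% and 3.23% without replicate 1 or 3 of the sham glia. With DESeq2 size factors or the newer quasi-likelihood method in the block fit 8 of the 10 genes were called lower, against 4.13% and 2.56% of all genes.

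**Figure D2:**
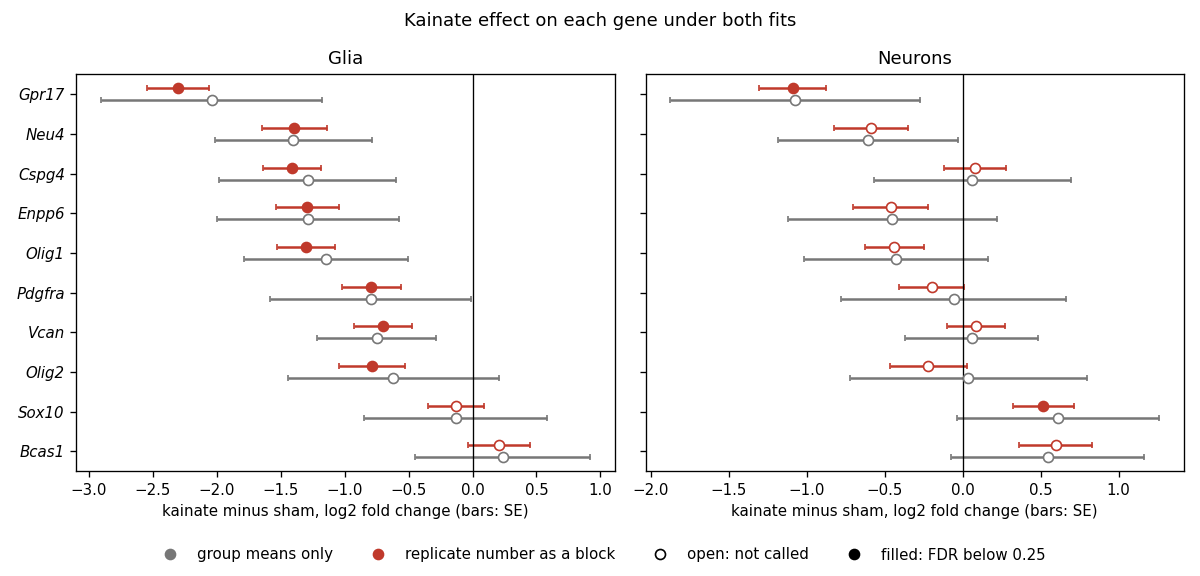
Kainate minus sham difference of each gene as a log2 fold change with its SE, in glia (left) and neurons (right), from the fit of group means (grey) and with the replicate number as a block (red), where filled points are called at an FDR below 0.25. In glia the estimates of both fits are close, and the SE is about 0.47 to 0.87 without and 0.22 to 0.26 with the block.

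Setting each gene against Sox10 within the same library sets aside any shift shared with Sox10, and shows how the genes differed among themselves. This ratio was chosen after the values had been seen, and carries no test. Per 100 counts of Sox10, Gpr17 had 29.9, 21.8 and 13.8 counts in kainate glia replicates 1, 2 and 3 and 92.3 and 91.1 in sham glia replicates 1 and 3. Thus the sham libraries, 1 of them of low input, were nearly equal, and each kainate library, the unpaired replicate 2 included, was far below them. The mean ratio in kainate was 0.238 of that in sham for Gpr17, 0.368 for Neu4, 0.411 for Cspg4, 0.438 for Enpp6 and 0.452 for Olig1. It was 0.586 for Pdgfra, 0.602 for Vcan and 0.628 for Olig2.

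Olig1 had 75.8, 56.1 and 43.7 counts per 100 of Sox10 in kainate and 128 and 131 in sham glia. Bcas1 went the other way, with 27.2, 39.0 and 49.2 in kainate and 25.1 and 33.3 in sham glia, and its groups overlapped. Relative to Sox10, kainate lay below sham without overlap for 8 of the 9 other genes, and for 3.25% of all genes. Relative to the summed counts of the 12 myelin genes, it did so for Cspg4, Olig1, Gpr17, Neu4 and Enpp6, and for 0.484% of all genes. On that scale the mean in kainate was 0.352 of sham for Gpr17, 0.538 for Neu4, 0.619 for Cspg4, 0.659 for Enpp6 and 0.673 for Olig1. It was 0.865 for Pdgfra, 0.914 for Vcan and 0.944 for Olig2, and above sham for Sox10 (1.56) and Bcas1 (2.11). The size of these ratios thus depends on the gene or genes they are set against.

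**Figure D3:**
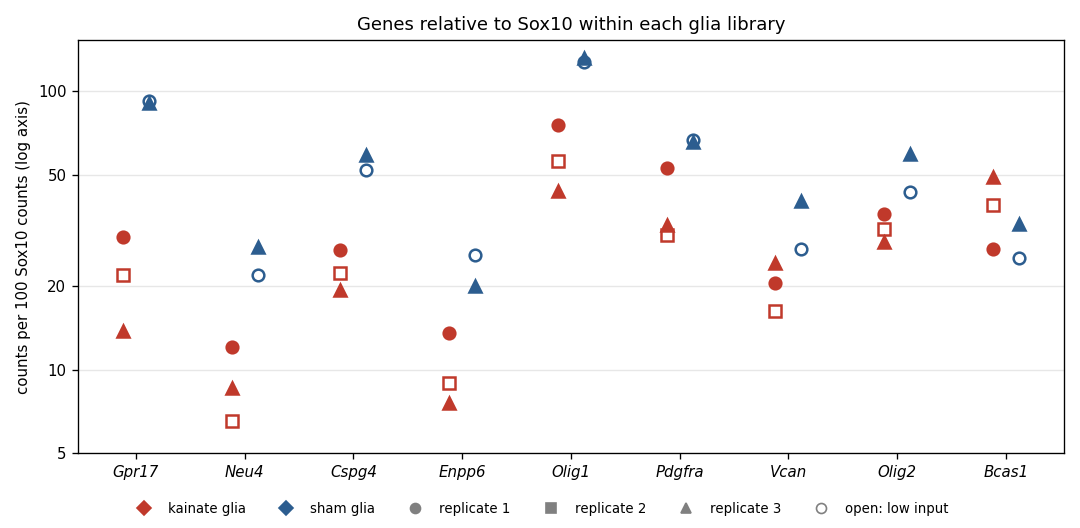
Counts of 9 genes per 100 counts of Sox10 in each of the 5 glia libraries, on a log axis, with kainate in red, sham in blue, the replicate number as the symbol and open symbols for low input. All kainate points lie below both sham points for 8 genes, most widely for Gpr17 (13.8 to 29.9 against 91.1 and 92.3), and overlap them for Bcas1.

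In neurons the 10 genes were low, and none was called between kainate and sham as group means with edgeR or DESeq2. No unadjusted p was below 0.05, and all genes together had 0.157% called higher and 0.00737% called lower. Their summed level was 47.0 to 142 CPM in kainate and 53.6 to 143 CPM in sham neurons, against 860 to 3242 CPM in kainate and 1723 to 5467 CPM in sham glia. In pool 1 the median gene of the neuron library stood at 1.09% (kainate) and 0.772% (sham) of its level in the glia library of the same pool. It stood at 19.8% in kainate pool 3. Vcan had the highest share in 5 of 5 pools, from 6.63% to 38%. Whether these counts come from glial RNA among the sorted neurons was not tested.

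Gpr17 again had the lowest difference. Its level was 1.21, 5.0 and 8.56 CPM in kainate neurons and 3.02, 9.70 and 18.5 CPM in sham neurons, with kainate below sham in each of the 3 pairs but overlapping groups. The difference was -1.08 (SE 0.80, FDR = 1) for group means. It ranged from -1.72 without kainate neuron replicate 3 to -0.37 without sham neuron replicate 3. With the block Gpr17 fell by 1.09 (SE 0.22, FDR = 0.00055), and Sox10 rose by 0.52 (SE 0.20, FDR = 0.23). These 2 calls compare with 1.9% of all genes called lower and 3.19% called higher. Sox10 had 4.62, 18.0 and 24.7 CPM in kainate and 4.83, 10.6 and 15.5 CPM in sham neurons, so that pair 1 was level and pairs 2 and 3 were higher in kainate. Bcas1 just missed the threshold with 0.60 (SE 0.23, FDR = 0.256). Of all genes, 4.26% lay higher and 3.6% lower in kainate neurons without overlap, and 0 of the 10 did.

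The difference of the kainate effect between glia and neurons was below 0 for 10 of 10 genes, from -1.35 (SE 0.94) for Cspg4 to -0.31 (SE 0.92) for Bcas1. Of all 40714 genes, 19564 lay below 0. None of the 10 was called for group means with edgeR or DESeq2, and none had an unadjusted p below 0.05, while 0.00246% of all genes were called lower. With the block, 3 of 10 were called lower, against 1.23% of all genes called lower and 0.702% called higher. They were Cspg4 with -1.49 (SE 0.30, FDR = 0.00284), Gpr17 with -1.21 (SE 0.32, FDR = 0.0435) and Olig1 with -0.86 (SE 0.29, FDR = 0.244). The same fit called lower 7 of 10 astrocyte markers and 8 of 15 other precursor markers, and 0 of 9 neuron markers. Without sham glia replicate 1 the group means gave Gpr17 0.23 and Olig1 0.43, above 0, and Cspg4 -0.31. The neuron libraries of Cspg4 had 5.26, 13.4 and 18.1 CPM in kainate and 4.43, 15.0 and 15.8 CPM in sham.

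Other genes of the lineage were read from lists written for this purpose. Sox6, Tcf7l2, Bmp4, Hapln2 and Pdgfrb each stand in 2 lists and are counted in both. Of 15 other precursor markers, none was called in glia as group means, 14 lay below 0, and the median was -0.84. With the block 10 of the 15 fell and none rose. In neurons 1 of 15 was called, Megf11, a scavenger-type receptor also known from retinal neurons. It had 147, 210 and 203 CPM in kainate neurons and 44.0, 39.1 and 34.2 CPM in sham neurons, without overlap, and rose by 2.25 (SE 0.36, FDR = 0.0679). The call was lost without kainate neuron replicate 2 (FDR = 0.348), sham neuron replicate 2 (0.619) or sham neuron replicate 3 (0.693). The rise itself stayed at 2.16 to 2.40 when 1 library at a time was left out. Megf11 was higher in glia than in neurons within sham, by 1.23 (SE 0.38, FDR = 0.0649), and lower within kainate, by -1.49 (SE 0.35, FDR = 0.0133), which gave -0.13 (SE 0.26, FDR = 0.733) over both treatments. Tmem100 and C1ql1 had 4.92 and 4.30 over both. The list as a whole had 13 of 15 called higher in glia.

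Of 15 other transcription factors of the lineage, 12 lay below 0 in glia, with a median of -0.45, and none was called. Sox8, a relative of Sox10, had -1.19 (SE 0.65). With the block 3 fell, Sox8 by 1.25 and Sox6, also one of the 10 precursor markers that fell, by 0.80 among them, and none rose. The list had 11 of 15 called higher in glia than in neurons, led by Nkx2-2 with 5.32 and Nkx6-2 with 5.12, and 1 lower, Nfib, with -0.89.

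Of 14 other genes of committed precursors and new oligodendrocytes, none was called in glia, 11 lay below 0 and the median was -0.46. With the block 4 fell and none rose. In neurons Cemip2, a hyaluronidase of the cell surface, had 123, 137 and 158 CPM in kainate and 40.6, 49.96 and 39.9 CPM in sham, and rose by 1.68 (SE 0.33, FDR = 0.153). This call was lost without any 1 of the 6 neuron libraries (FDR = 0.305 to 1), without kainate glia replicate 2 (0.332) and with no filter on low counts (0.297), at differences of 1.58 to 1.79. The list had 10 of 14 called higher in glia, led by Ugt8a, the enzyme of galactolipid synthesis, with 5.72 and Lims2 with 3.85, and 2 lower, with Rras2 the lowest at -2.08. Lims2 overlaps Gpr17 on the opposite strand by 188 of the 5195 exonic bases of Gpr17. With the block Lims2 fell by 1.13 in glia (FDR = 0.0342).

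Of 12 myelin and mature oligodendrocyte genes, 11 lay below 0 in glia, with a median of -0.70, and none was called. The smallest p belonged to Aspa, the enzyme that splits N-acetylaspartate, with -1.52 (SE 0.68), and Mbp, with -0.98 (SE 0.56). Without sham glia replicate 1 these were -0.22 and -0.08. With the block 6 of 12 fell, Aspa by 1.77 and Mbp by 1.19 among them, and none rose. Their summed level was 6246 to 31568 CPM in kainate and 10342 to 45420 CPM in sham glia, so the mature part of the lineage moved with the replicate number too.

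The 6 other ligands and receptors of the PDGF family had no called gene in glia as group means. Pdgfb, a ligand, had 0.96 (SE 0.43) and the receptor-like Pdgfrl had -0.72 (SE 0.63). With the block Pdgfb rose by 0.89 (FDR = 0.0466) and Pdgfa, the main ligand of Pdgfra, by 0.82 (FDR = 0.0525). The family had 4 of 6 genes called higher in glia than in neurons, led by Pdgfrb with 2.29 and Pdgfrl with 1.98, and Pdgfb lower, with -1.46.

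Of 16 genes of the Notch, BMP and Wnt pathways that act on differentiation, none was called in glia as group means, with a median of -0.10. Id1, an inhibitor of basic helix-loop-helix factors, had 1.58 (SE 0.69) and Hes5, a Notch target, had -2.33 (SE 1.04). Both values moved with single libraries, as Id1 had 0.67 without kainate glia replicate 1 and Hes5 had -4.60 without the same library and -0.22 without sham glia replicate 1. With the block 2 rose, Id1 by 1.82 and Id2 by 1.19, and 3 fell, with Hes5 falling by 2.80. Hes5 and Bmp4 were the highest in glia over neurons, with 3.92 and 3.45, and Lingo1 was the lowest, with -2.61. In all 12 of 16 were called higher and 1 lower.

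The matrix partners of Cspg4 and Vcan were the one list with genes called higher in glia as group means, 2 of 14. Cd44, a receptor for hyaluronan, had 167, 146 and 59.6 CPM in kainate glia and 6.84 and 12.05 CPM in sham glia, and rose by 3.72 (SE 0.58, FDR = 0.0763). Adamts1, a protease that cleaves Vcan, had 720, 355 and 248 CPM against 82.3 and 38.3 CPM and rose by 2.87 (SE 0.54, FDR = 0.142). In both genes every kainate library lay well above every sham library, whatever its number. Both calls were lost in a separate fit per cell type, which called 0 of 39857 genes in glia (FDR = 0.711 for Cd44 and 1 for Adamts1). With filterByExpr given no groups, a setting added after the data were seen, that fit tested 21243 genes and called Adamts1 (FDR = 0.224) but not Cd44 (FDR = 0.279). Both calls were also lost with both libraries of low input left out (0.93 and 0.615), and without either replicate 2 of the kainate glia (0.26 and 0.328) or replicate 1 of the sham glia (0.405 and 0.326). The call of Adamts1 was also lost without kainate glia replicate 1 (0.42), kainate neuron replicate 2 (0.367), sham neuron replicate 2 (0.336) or sham neuron replicate 3 (0.301), and with low input as a covariate (0.32). Over all alternatives the difference was 3.26 to 4.18 for Cd44 and 2.21 to 3.69 for Adamts1. The matrix glycoprotein Tnc rose in neurons by 2.20 (SE 0.36, FDR = 0.0738), from 4.77, 6.86 and 7.70 CPM in sham to 26.2, 21.9 and 41.3 CPM in kainate. This call was lost without kainate neuron replicate 3 (FDR = 0.311), sham neuron replicate 2 (0.619) or sham neuron replicate 3 (0.482). The rise of Tnc was 1.894 to 2.385 when 1 library at a time was left out. With the block 4 of 14 rose in glia, Cd44, Adamts1, Tnc and Has2, and 3 fell, Bcan, Hapln1 and Tnr. The list had 8 of 14 called higher in glia than in neurons, led by Hapln2 with 5.24 and Adamts4 with 5.18, and 2 lower, with Hapln4 the lowest at -3.04.

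Of 11 proliferation genes, 0 were called in glia by either fit, and the median was 0.12 for group means. Unadjusted p-values below 0.05 numbered 0 for group means. The smallest p belonged to Mcm2 with 0.69 (SE 0.43) and Mcm5 with 0.48 (SE 0.42), both part of the helicase that licenses replication. The summed level was 104 to 118 CPM in kainate and 98.6 to 99.9 CPM in sham glia. Between cell types 5 were called higher in glia, led by Ccnb1 with 2.00 and Top2a with 1.68, and 1 lower, Ccna2, with -0.87.

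**Figure D4:**
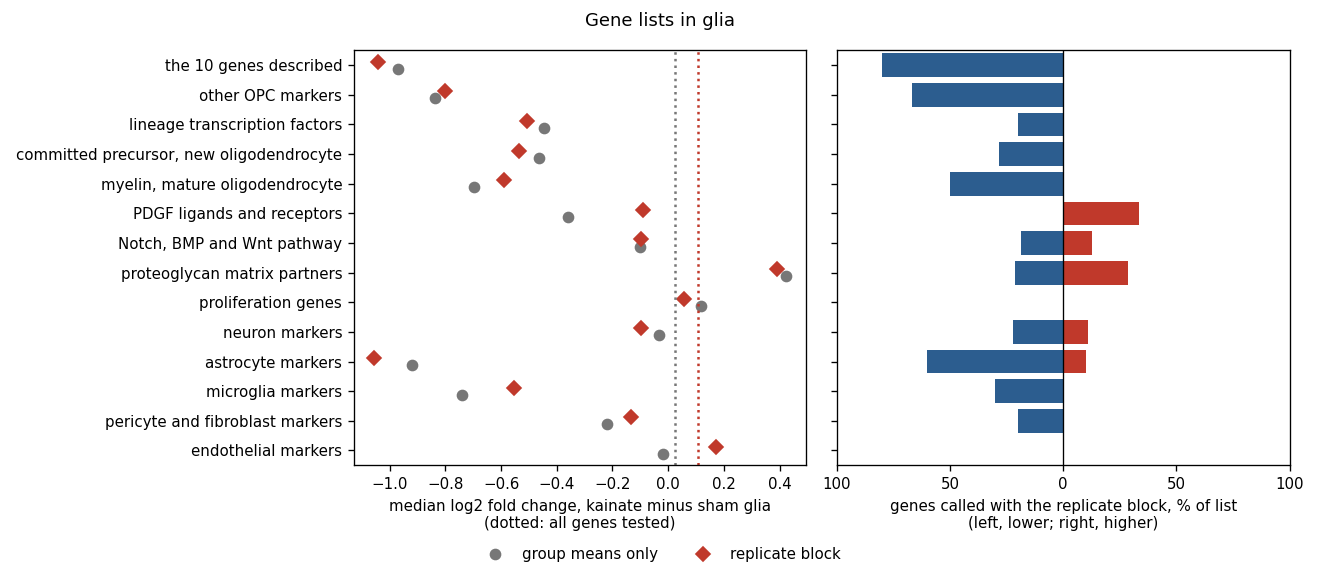
Gene lists in glia, with the median kainate minus sham log2 fold change for group means (grey circles) and with the replicate block (red diamonds) on the left, and the percent of each list called with the block on the right, lower to the left and higher to the right. The 10 genes have a median of -0.97 and -1.04 against 0.02 and 0.11 for all genes (dotted lines). The astrocyte list has about the same, -0.92 and -1.055, the microglia list -0.74 and -0.55, and the myelin list -0.70 and -0.59.

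Markers of other cells in the NeuN– fraction moved too, and their part in the results above was not tested. With the block, 6 of 10 astrocyte markers fell and 1, Gfap, rose, and 3 of 10 microglia markers fell, while none was called as group means. The medians for group means and with the block were -0.92 and -1.055 for astrocyte markers, about those of the lineage genes described. They were -0.74 and -0.55 for microglia, -0.03 and -0.10 for neuron and -0.02 and 0.17 for endothelial markers. Gja1, the main gap junction protein of astrocytes, had -1.50 (SE 0.83) and Gfap, their intermediate filament, 1.86 (SE 0.61) for group means, and -0.17 and 2.76 without sham glia replicate 1. P2ry12 and Siglech, receptors of resting microglia, had -2.51 (SE 0.65, FDR = 0.788) and -1.58 (SE 0.58), and -0.55 and -0.41 without sham glia replicate 1. The astrocyte markers summed to 769 to 4190 CPM in kainate and 1459 to 5553 CPM in sham glia, and those of microglia to 849 to 2406 and 833 to 4381 CPM. Neuron markers summed to 636 to 892 CPM in kainate and 603 to 850 CPM in sham glia, against at least 3277 CPM in neuron libraries. With the block 1 of 9 of them rose and 2 fell.

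Pericytes and fibroblasts can express Cspg4 and Pdgfra. Their 10 markers summed to 84.5 to 170 CPM in kainate and 122 to 220 CPM in sham glia, and 2 of 10 fell with the block, with Vtn and Col1a1 at -0.997 (SE 0.73) and -0.47 (SE 0.47) for group means. The 8 endothelial markers summed to 33.9 to 58.0 and 32.6 to 57.1 CPM, with no call in either fit, and Esam and Kdr had -0.43 (SE 0.44) and 0.21 (SE 0.51). No gene of these 5 lists was at 0 in any library. In glia over neurons, 10 of 10 astrocyte markers were called higher, with Gjb6 (4.79) and Gja1 (4.51) the highest and Slc1a2 (1.66) the lowest. The same held for 10 of 10 microglia markers, from Cx3cr1 (5.60) and Tmem119 (5.54) to Aif1 (1.80). Vtn (3.36) and Col1a2 (2.47) led the pericyte and fibroblast markers and Dcn (-1.52) was the lowest, with 7 of 10 called higher. Among endothelial markers Ly6c1 (2.07) and Cldn5 (2.02) led and Tek (-0.48) was the lowest, with 4 of 8 called higher. The 9 neuron markers were called lower in 9 of 9 cases, from Slc17a7 (-3.59) to Gad2 (-1.82) and Stmn2 (-1.79).

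Among the genes whose profile over the 11 libraries was most like the mean profile of the 10 were Pld4, S1pr1, Megf10 and Zcchc24. Likeness was the root mean square distance of log2 CPM, each gene centred on its own mean, and was 0.26 for Pld4, 0.32 for S1pr1, 0.33 for Megf10 and 0.33 for Zcchc24. Among the 10 themselves Pdgfra lay closest to the mean profile, with 0.25, and Vcan farthest, with 1.11. Pld4 is known from microglia. Each of these genes was higher in glia than in neurons, by 4.38 (Megf10) to 4.71 (Zcchc24).

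In mm10, Olig2 (chr16:91225457-91228677) and Olig1 (chr16:91269772-91271933) lie next to each other on the + strand. Gpr17 lies at chr18:31942997-31949636 on the - strand. Exons of Pdgfra, Olig1, Gpr17 and Bcas1 overlap exons of other annotated genes, by 652 bases in Pdgfra, 157 in Olig1, 188 in Gpr17 and 474 in Bcas1. Whether the counting used strand is not given in the sources used here, so reads in these stretches cannot be assigned to one gene with certainty.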

How the data were processed

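The deposited table holds raw counts per gene for 11 mRNA libraries. The authors trimmed reads with Trim Galore 0.4.3, aligned them to mm10 with Rsubread and counted uniquely mapping reads with featureCounts on GENCODE M16. The amplification kit primes on poly(A), and no molecular identifiers are described. The 11 bisulfite samples were not analysed here.

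Rows with no symbol (105) were dropped, and filterByExpr (minimum count 10, minimum total 15) kept 40714. Counts were scaled by TMM, and edgeR's quasi-likelihood model was fitted to the 4 group means in one model (common biological coefficient of variation 0.6, and 0.251 with the block), with Benjamini-Hochberg adjustment over all genes and an FDR below 0.25. The methods of the study fitted the cell types separately, which is an alternative here. They name filterByExpr at its defaults but not whether groups were given to it, so both were run. Exon lengths and overlaps come from GENCODE M21 on the same assembly. The fits were also run on simulated counts, drawn with the spread left in the block fit, with and without a built-in replicate effect. Such counts cannot show whether the replicate numbers pair the libraries here.

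Deviations from the group mean correlated between same-numbered libraries of one cell type (0.760 and 0.787 in glia, 0.643, 0.161 and 0.491 in neurons), so the numbers were taken to pair the libraries, which the labels do not state. The methods describe 2 sequencing pools, with single reads on one instrument and paired reads on another. Which library was in which sequencing pool is not given in the sources used here, so whether the number follows it was not tested. The 2 glia values are not independent, since deviations of 2 sham libraries mirror each other. Glia and neurons of one pool come from the same mice, and correlated at 0.240 to 0.668.

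The 10 genes and 13 other lists were chosen with earlier results of these data known. All 10 genes are named. Of each other list the text names genes called in a kainate comparison, or else the 2 with the smallest p in glia, and the 2 highest and the lowest in glia over neurons. Genes named from the block fit, and Lims2, were chosen after their values were seen. Some genes that this rule selects are not reported here. Each group holds 2 or 3 pools of mice, and p-values of the group-mean fit measure the spread between them. Those of the block fit measure the spread left once the replicate number is taken out, over glia and neurons together. The tools were edgeR 4.0.16 and, as an alternative, DESeq2 1.42.0, under R 4.3.3.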

Additional observations from a re-analysis of the deposited data

Results flagged for a closer look

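With the replicate number as a block, a test of the difference of the kainate effect between glia and neurons called 3 of the 10 genes, against 1.23% of all genes called lower. It also called lower 8 of 15 other precursor markers, 7 of 10 astrocyte markers, 3 of 10 microglia markers and 2 of 12 myelin genes. Lower calls were thus not particular to the 10 genes. Of neuron and endothelial markers it called 0 of 9 and 0 of 8. The difference, glia minus neurons on the log2 scale, was -1.49 for Cspg4 (FDR = 0.00284), -1.21 for Gpr17 (FDR = 0.0435) and -0.86 for Olig1 (FDR = 0.244), from edgeR's quasi-likelihood test. Without the block the differences were -1.35, -0.96 and -0.71, at an FDR of 1, and without sham glia replicate 1 they turned above 0 for Gpr17 (0.23) and Olig1 (0.43) and shrank to -0.31 for Cspg4. In the block fit 1 gene was called with the newer quasi-likelihood method, against 0.727% of all genes called lower, and 1 without replicate 3 of kainate or sham glia, against 2.16% and 2.24%. The genes were low in neurons, where Gpr17 reached at most 18.5 CPM.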

How the results depend on the processing

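The higher level in glia than in neurons was called for 10 of the 10 genes under every alternative run. For kainate against sham as group means, 0 genes were called in glia, in neurons or in the difference between them under the alternatives without a block, apart from glia without sham glia replicate 3, so that leaving out 1 library gave 0 to 3. The replicate block gave 8 genes in glia, 2 in neurons and 3 in the difference. Block fits added after the data were seen gave 8, 4 and 4 with DESeq2 size factors (4.13%, 2.19% and 1.7% of all genes called lower and 2.61%, 3.27% and 0.707% higher) and 8, 2 and 1 with the newer quasi-likelihood method (2.56%, 2.35% and 0.727% lower, 2.74%, 3.37% and 0.425% higher). Dropping a glia library from the block fit gave 7, 5 and 3 (kainate 1), 5, 3 and 1 (kainate 3), 7, 3 and 3 (sham 1) or 5, 3 and 1 (sham 3). Of all genes these fits called 0.675% to 3.47% lower and 1.29% to 6.28% higher in glia, 1.97% to 3.16% and 3.13% to 3.4% in neurons, and 0.43% to 2.24% and 0.207% to 4.29% in the difference. With this block Bcas1 in glia turned to -0.071 and -0.079 without replicate 3 of kainate or sham, and Olig2 in neurons to -0.22. The block changed no other direction among the 10 genes, and the pool block changed no call between the cell types.

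Without both libraries of low input, the glia difference turned above 0 for Pdgfra (0.56), Olig1 (0.06), Olig2 (0.22), Sox10 (1.01), Enpp6 (0.28), Vcan (0.088), Sox8 (0.18), Hes5 (0.17), Nrgn (0.15), Gja1 (0.063), Vtn (0.28) and Esam (0.026), and below 0 for Kdr (-0.37). Sox10 had 0.23 with low input as a covariate. Once both low-input libraries were left out, the glia minus neurons difference of the effect was above 0 for Pdgfra (0.62), Olig1 (0.49), Olig2 (0.18), Sox10 (0.40), Gpr17 (0.28), Neu4 (0.33), Bcas1 (0.43), Enpp6 (0.74) and Vcan (0.031). The cause was not tested. With no filter on low counts, Olig2 and Vcan in neurons had -0.002 and -0.001. In the separate fit with the filter given no groups, added after the data were seen, Sox10 in glia had 0.031 and Cspg4 and Vcan in neurons had -0.009 and -0.005, with 0 of the 10 genes called in either cell type.

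Leaving out 1 library at a time, the glia difference ranged from -1.75 to 0.39 for Pdgfra, -1.98 to -0.25 for Cspg4, -1.95 to 0.004 for Olig1, -1.24 to 0.22 for Olig2, -0.77 to 1.04 for Sox10, -0.30 to 1.11 for Bcas1, -2.18 to 0.18 for Enpp6, -1.89 to 0.17 for Sox8, -1.17 to 0.25 for Nrgn, -2.01 to 0.10 for Vtn and -0.39 to 1.33 for Kdr. It was -4.60 to -0.22 for Hes5, 0.67 to 2.51 for Id1, -2.79 to -0.17 for Gja1 and 1.32 to 2.76 for Gfap. The difference between cell types ranged from -1.65 to 0.45 for Pdgfra, -1.99 to -0.31 for Cspg4, -1.47 to 0.43 for Olig1, -1.25 to 0.20 for Olig2, -1.38 to 0.43 for Sox10, -1.77 to 0.23 for Gpr17, -1.67 to 0.14 for Neu4, -1.16 to 0.56 for Bcas1 and -1.67 to 0.64 for Enpp6. In neurons it was -0.88 to 0.37 for Pdgfra, -0.33 to 0.42 for Cspg4, -0.82 to 0.56 for Olig2 and -0.065 to 0.32 for Vcan. Megf11 in glia over neurons had -0.48 to 0.085. With 1 sham glia library left, its spread is taken to be that of the other groups. P2ry12, Siglech, Aspa and Mbp in glia kept their direction over all alternatives but ranged from -3.31 to -0.42, -2.22 to -0.41, -2.19 to -0.22 and -1.54 to -0.08.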
